A study of Mus musculus with 12 samples.

Results

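The 6 genes of the LSD1-CoREST repressor complex and the proteins bound to it, Phf21a, Kdm1a, Rcor1, Rcor2, Rcor3 and Rest, were examined in the gene models deposited with an RNA-seq study of cocaine in the mouse nucleus accumbens (NAc), a region of the ventral striatum with a role in reward. The members were chosen by gene name, and 38 of the 87740 transcript models carried 1 of the 6 names. They lay at 6 of 35406 loci, and no model of another gene name shared these loci.

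The study sequenced poly-A RNA from 12 pools of NAc of C57BL/6 mice (males of the C57BL/6 J substrain in the study's methods). Per the labels, the mice were aged 8 to 10 weeks and each pool was made from 3 to 5 animals. The study's own text gives an age of 8 weeks and 5 animals per pool. The repeated cocaine group received 7 daily intraperitoneal injections of cocaine at 20 mg/kg, and the repeated saline group received saline for 7 days. The acute cocaine group received saline for 6 days and then 1 injection of cocaine at 20 mg/kg, and the acute saline group was its own control with 7 days of saline. Each of the 4 groups had 3 pools, and all tissue was taken 24 h after the last injection. The deposited file analysed here is 1 set of gene models that is tied to no single sample, and which pools' reads were used with it is not given in the sources used here. It gives the exons, locus, transcriptional start site (TSS) group and protein identifier of each model, and no expression value of any pool. No comparison between cocaine and saline, no depth per pool and no check of the tissue by its marker genes could therefore be made, and the results below describe promoters, isoforms and short exons of the 6 genes as the models define them. All 38 models had exactly the exons of the transcript with the same Ensembl identifier in GENCODE M1, a mouse annotation on the same genome build (mm9, NCBIM37), and none was marked as assembled by Cufflinks. GENCODE M1 lists 22 transcripts of Phf21a, 2 of Rcor1 and 5 of Rcor2, against 19, 1 and 4 models here. The further ones were not analysed here, so counts and statements that no model has a feature hold for the 38 models alone. Presence of a model shows that the isoform was in the reference, not that it was detected in NAc.

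Kdm1a encodes LSD1, the enzyme that removes methyl groups from lysine 4 of histone H3 (H3K4). The CoREST proteins are encoded by Rcor1, Rcor2 and Rcor3. CoREST, the product of Rcor1, holds LSD1 together with the histone deacetylases HDAC1 and HDAC2 and brings it to nucleosomes. Whether the products of Rcor2 and Rcor3 act alike was not examined here. Phf21a (BHC80) has a PHD finger that binds H3K4 without methyl groups. Rest encodes a zinc finger protein that binds DNA and recruits CoREST, and the complex is known for repressing neuronal genes outside neurons. Phf21a, Kdm1a and Rest are all known to be spliced differently in neurons.

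Phf21a had the most models of the 6 genes. It had 19 transcripts, of which 16 carried a protein identifier and are called coding here, in 10 TSS groups, which are sets of models that begin at or close to the same base. Kdm1a had 9 transcripts, of which 5 were coding, in 8 TSS groups. Rcor2 had 4 transcripts in 4 TSS groups, Rest had 3 in 2 groups, Rcor3 had 2 in 1 group and Rcor1 had 1. Over the 22206 coding loci of the file, the median was 2 transcripts and 1 TSS group. As many transcripts as at Phf21a were found at 0.491% of coding loci and as many TSS groups at 1.04%, whereas for Kdm1a these shares were 7.64% and 2.58%. The 3 Rest models and the 4 Rcor2 models were numbers reached by 41.5% and 31.4% of coding loci. Every coding model of Rcor1, Rcor2, Rcor3 and Rest had an annotated start and stop codon in GENCODE M1, while 7 of the 16 coding models of Phf21a and 3 of the 5 of Kdm1a lacked one or both.

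**Figure D1:**
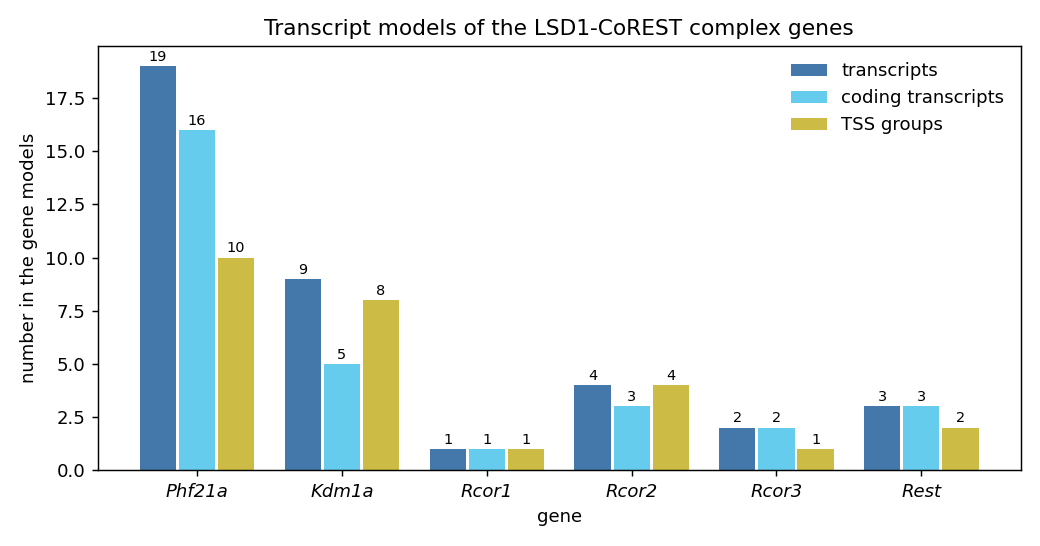
Bars give the number of transcripts, of coding transcripts (those with a protein identifier) and of TSS groups for each gene, on a linear axis. Phf21a stands highest with 19, 16 and 10, followed by Kdm1a with 9, 5 and 8, and Rcor1 has 1 of each.

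Phf21a (locus XLOC_016400) occupies chr2:91933274-92204823 on the plus strand of mm9. Its 10 TSS groups fell into 3 kinds of position. The most upstream group, TSS23275, held 1 transcript and began at base 91933274. Then followed 5 groups, TSS23276 to TSS23280, whose first bases lay within 2.36 kb of each other, 91 kb downstream of the first. TSS23277 began inside the first exon of TSS23276, and the first exons of both groups ended at the same base, 92024509. The last 4 groups, TSS23281 to TSS23284, began at 128, 135, 238 and 256 kb from the most upstream start, each inside a later exon of another Phf21a model. At coding loci with 2 or more TSS groups, 20.7% of the groups began inside a later exon of another model.

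The first 6 groups all began before the start codon at base 92061719, which was the annotated start codon in every one of their models that had one. Models of TSS23276 to TSS23280 placed between 289 and 696 bases of mRNA before that codon. The single model of TSS23275 placed 129 bases before it. In TSS23281 the first base of 3 of the 4 models was this start codon's own first base, although 2 of these 3 had their own annotated start codon 6902 bases further on. TSS23282 began with a first exon of 3 nt, the end of the 33-nt exon of other models, and its model had no annotated start codon.

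The model of TSS23275 differed from the rest at its first intron. That intron is 128 kb long and has the letters TT and AC at its ends, where 38 of the 41 distinct Phf21a introns and 97.3% of the introns at coding loci have GT and AG. Its first exon is 37 nt long and occurs once in the mm9 genome. The start lies inside the span of Gm13780, a processed transcript on the opposite strand (chr2:91883530-91936199), and the models of the 2 genes share no exonic base. The other Phf21a introns without GT and AG were one of 16211 bases in TCONS_00040123 and one of 3439 bases shared by TCONS_00040121 and TCONS_00040122. All introns of the other 5 genes had GT and AG.

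The starts also differed in base composition. A CpG island promoter is one rich in unmethylated CG dinucleotides, and a ratio of observed to expected CG above 0.6 is a usual mark of one. Among windows from 250 bases before to 50 after the start, that of TSS23279 had a ratio of 0.894, with 32 CG dinucleotides and 69.7% G and C. The other 9 Phf21a starts had ratios from 0 to 0.272. They include TSS23281 to TSS23284, which began inside later exons of other models. Whether the windows of these 4 hold promoters was not tested. TSS23276, TSS23277 and TSS23278, which lie just upstream of TSS23279, had ratios of 0.0765, 0.0841 and 0.26. In windows of 500 bases on each side these were 0.408, 0.179 and 0.433, and that of TSS23279 was 0.739. The window of TSS23275 had a ratio of 0.175 and 40.7% G and C. The promoters of the most upstream start and of TSS23279 are shown for this contrast, from 120 bases before to 30 after the start on the plus strand of mm9 (chr2:91933154-91933303 and chr2:92025496-92025645). Capitals mark GGGCGG, a letter string bound by Sp1 in GC-rich promoters, and CCAAT, on either strand.
TSS23275: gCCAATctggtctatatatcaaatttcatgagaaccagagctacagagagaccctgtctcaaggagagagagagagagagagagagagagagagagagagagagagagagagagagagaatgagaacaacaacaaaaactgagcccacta
TSS23279: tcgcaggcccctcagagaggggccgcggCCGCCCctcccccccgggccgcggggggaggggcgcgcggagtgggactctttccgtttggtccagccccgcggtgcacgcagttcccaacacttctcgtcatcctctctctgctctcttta
The first window holds a run of 56 bases of alternating G and A and 1 CCAAT, and the second holds none of the latter and 1 of the 3 GGGCGG strings that the longer window of TSS23279 contains.

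**Figure D2:**
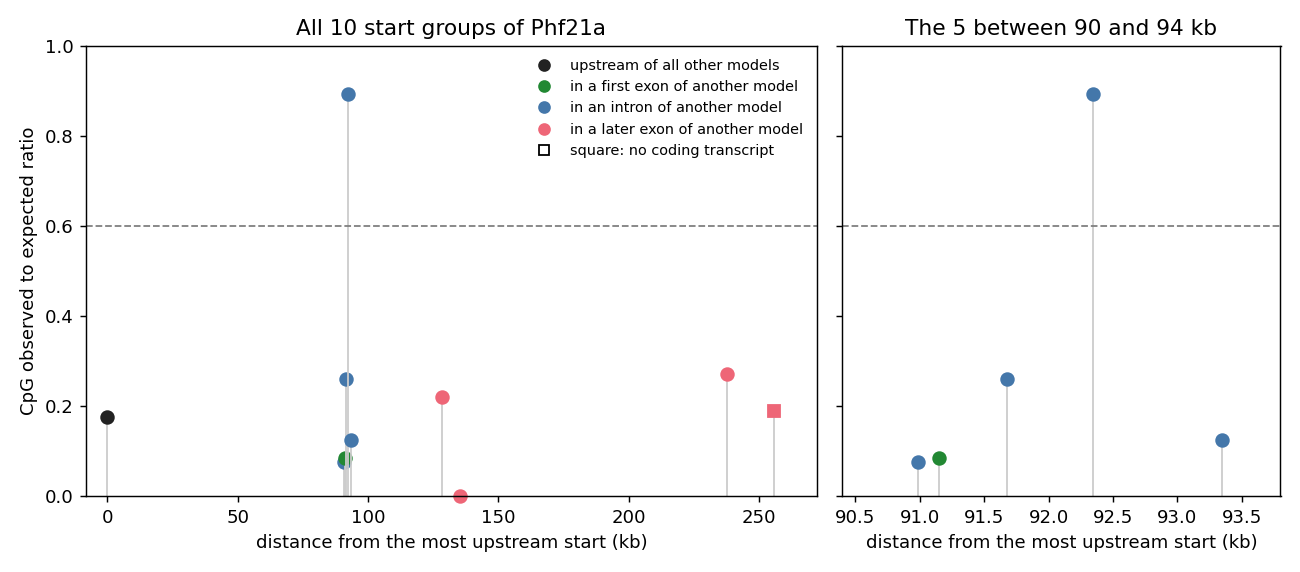
Each point is a TSS group of Phf21a, placed by its distance in kb from the most upstream start and by the CpG observed to expected ratio of the 300 bases around it, with the 5 groups near 91 kb spread out in the right panel. The dashed line is the ratio of 0.6, and TSS23279, with 0.894, is the one point above it.

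Across all 6 genes, 9 of the 20 TSS groups with a coding transcript had a ratio above 0.6. The share over all coding TSS groups was 43.5%, and their median ratio was 0.51. Each of the 6 genes had at least 1 such promoter. Both Rest starts were among them, with ratios of 1.17 and 0.837, as were the starts of Rcor1 and Rcor3 with 0.859 and 0.992. So were the first pairs of starts of Kdm1a (1.08 and 0.942) and Rcor2 (0.66 and 0.657). The second Kdm1a start, TSS33305, began inside the first exon of other models, past their start codon. Its only model had no annotated start codon, and its window lay within coding bases of that exon. Whether it is a separate promoter was not tested. The string GGGCGG was found on either strand in 8 of the 20 windows (42.5% of all coding promoters), CCAAT in 7 (35% of all) and TATAAA in 2 (10.8% of all). TGACGTCA, the palindrome bound by CREB, and TTCAGCACC, a part of the element that REST itself binds, were in none of the 20 windows, and over all coding promoters they were in 1.9% and 0.435%.

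Isoforms of Phf21a differed at 2 main places in the coding sequence. The first was a cassette exon of 252 nt, or 249 nt where the acceptor 3 bases further on was used. It was in 6 of the 10 models that span it, 4 with the longer and 2 with the shorter form, and absent from 4. Its length is a multiple of 3, and TCONS_00040106, which lacks it, had 604 codons where TCONS_00040108 and TCONS_00040120, which have it, had 688.

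The second place held a pair of exons of 23 and 164 nt (chr2:92191766-92191788 and chr2:92191858-92192021) that no model used together whole. Both were joined to the same donor before them and the same acceptor after them. The 23-nt exon was in 5 models and the 164-nt exon in 6, and 69 bases lay between them. Such a pair was found at 1.78% of all coding loci. It needs 2 or more models, which 56.9% of coding loci had. Both lengths leave a remainder of 2 when divided by 3, so the frame after them is the same, and TCONS_00040107, with the shorter exon, had 47 codons fewer than TCONS_00040108. The whole stretch is shown because it carries this choice, on the plus strand of mm9 (chr2:92191766-92192021) with both exons in capitals and the intron between them in lower case.
Phf21a 23-nt and 164-nt exons: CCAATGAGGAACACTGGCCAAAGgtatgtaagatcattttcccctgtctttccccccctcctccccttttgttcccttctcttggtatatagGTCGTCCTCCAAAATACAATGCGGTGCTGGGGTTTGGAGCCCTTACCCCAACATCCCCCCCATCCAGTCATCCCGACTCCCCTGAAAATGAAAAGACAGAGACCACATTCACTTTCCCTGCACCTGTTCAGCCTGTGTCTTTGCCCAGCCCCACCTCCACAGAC
The lower-case stretch begins with gt and ends with ag, so the 69 bases have the ends of an intron although no model joins these exons.

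In these models the choice was not fixed by the start. The models with the 23-nt exon came from 4 TSS groups and those with the 164-nt exon from 6. Of the 8 groups with either exon, only TSS23276 and TSS23281 held models of both kinds. Those of TSS23281 began at the start codon's first base. The other groups had too few such models to show both. Nor was the choice fixed by the cassette exon of 252 nt. Of 10 models that spanned both places, 3 had the cassette with the 23-nt exon, 2 had it with the 164-nt exon, 1 lacked it and had the 23-nt exon and 3 lacked it and had the 164-nt exon. The remaining model, TCONS_00040123, had the cassette and passed over both exons of the pair with the 16211-base intron described above, and its annotated reading frame was 123 codons long. Starts shared 2 protein identifiers. TCONS_00040106 from TSS23275 and TCONS_00040116 from TSS23279 shared 1 with 604 codons, and TCONS_00040108 from TSS23276 and TCONS_00040120 from TSS23281 shared 1 with 688 codons.

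Smaller differences came from acceptors close to each other. The exon of 90 nt was 87 nt long in 2 models that used an acceptor 3 bases further on, against 8 models with the longer form. The exon of 66 nt was 87 nt long in 1 model whose acceptor lay 21 bases upstream, against 10 models with the shorter form. TCONS_00040121 had the 23-nt exon followed by an exon of 33 nt, which is the 3' end of the 164-nt exon, and was 11 codons longer than TCONS_00040122, which was otherwise alike. These 2 models also had exons of 36 and 25 nt in place of the 99-nt and 52-nt exons, joined by the 3439-base intron that begins with AG and ends with GG. A 27-nt exon (chr2:92041669-92041695) was found in 1 model, which had no protein identifier.

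**Figure D3:**
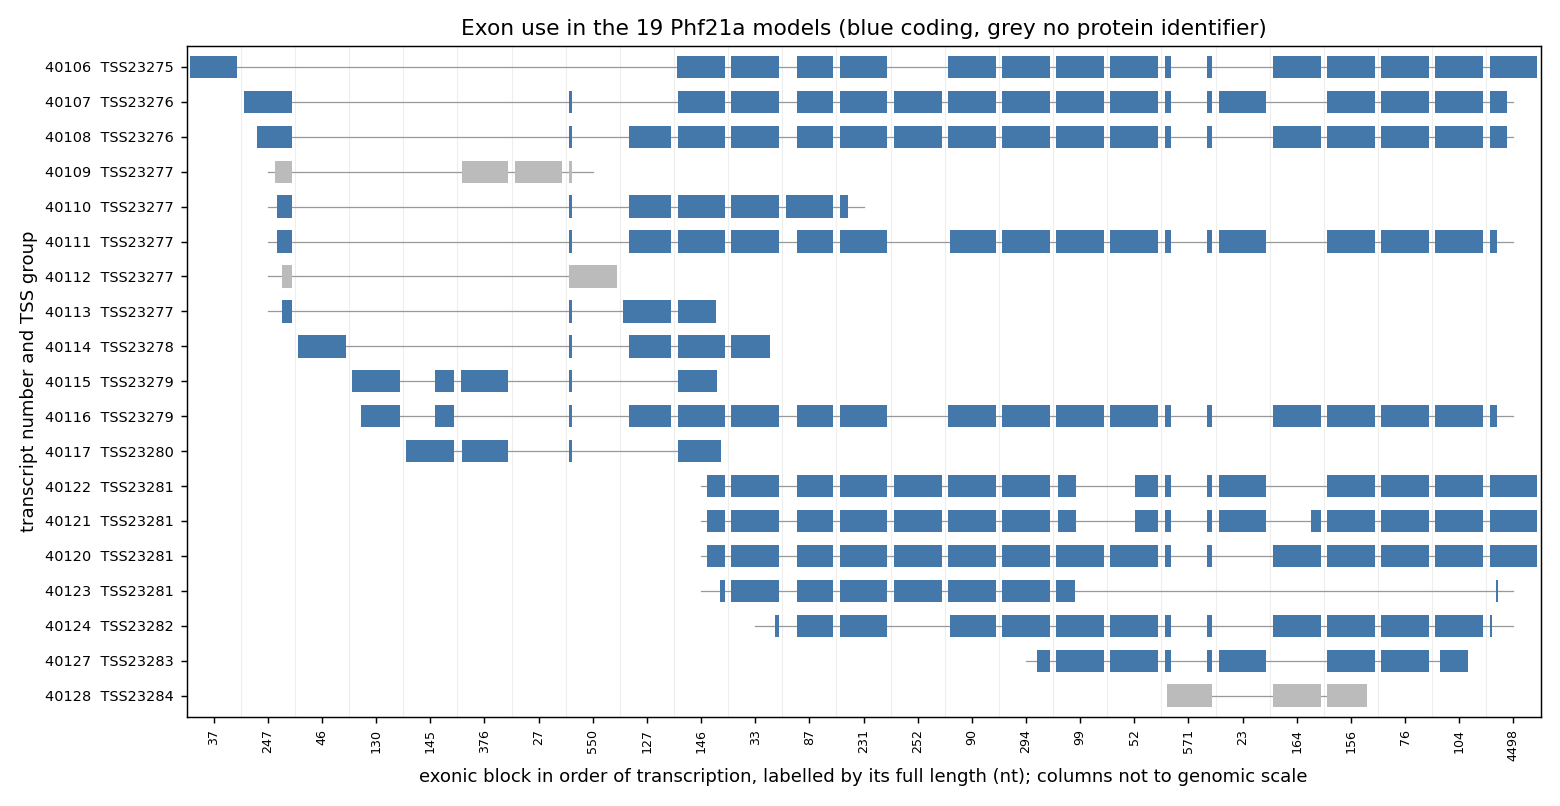
Rows are the 19 Phf21a models in file order and columns the 25 exonic blocks in order of transcription, each labelled with its full length in nt and drawn to the same width, and filled boxes show the part of a block that a model contains. The boxes for 23 and 164 nt are never filled whole in the same row, and the 252-nt block is filled in 6 rows.

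The models overlapped so far that some had nothing of their own. Of the 19 Phf21a models, 9 had no exonic base that was absent from all others (29.5% of all transcripts at coding loci with 2 or more transcripts), and 5 of these also had no splice junction of their own (TCONS_00040108, TCONS_00040111, TCONS_00040122, TCONS_00040120 and TCONS_00040124). No single base or junction marks these 5, so a level given to one of them rests on reads that other models also contain. Over all transcripts of coding loci with 2 or more transcripts, 10.8% had neither a base nor a junction of their own. Among the other members with 2 or more transcripts, every model had at least 1 base or junction of its own.

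Kdm1a (locus XLOC_022974) lies on the minus strand at chr4:136106455-136158638. Its models with an annotated start and stop codon, TCONS_00057949 and TCONS_00057950, both began at TSS33304 and had 853 and 873 codons. The difference was an exon of 60 nt after the second exon, found in 1 of the 3 models that span it. A second alternative exon of 12 nt lay between the 95-nt and the 143-nt exons and was found in 1 of 5 spanning models, TCONS_00057957, which starts and ends inside the coding sequence. That model begins downstream of the 60-nt exon and so could not contain it, and the models do not show whether the 2 exons occur together. Kdm1a is known for a very short exon used in neurons, whose inclusion is promoted by the splicing factor SRRM4 (nSR100), a protein that binds near UGC letters ahead of short exons. The 2 exons are shown in capitals on the minus strand, with 20 bases of the intron before and 10 of the intron after in lower case (exons at chr4:136137955-136138014 and chr4:136119353-136119364).
Kdm1a 60-nt exon: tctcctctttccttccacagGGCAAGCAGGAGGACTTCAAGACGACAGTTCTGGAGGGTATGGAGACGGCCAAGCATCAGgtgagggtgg
Kdm1a 12-nt exon: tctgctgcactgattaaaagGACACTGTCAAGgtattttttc
Both lengths are multiples of 3. Of 10846 exactly skipped internal exons at coding loci, 1.55% were 12 nt or shorter.

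In the 150 intronic bases before it, the 12-nt exon had 6 TGC strings. The median over 1578 skipped exons of at most 51 nt was 3, and 10.1% of them had 6 or more. The 60-nt exon had none in the same stretch, and the 23-nt exon of Phf21a had 4. A further cassette exon of 90 nt was found in TCONS_00057956 alone, 1 of 5 spanning models, and TCONS_00057951 lacked the adjacent exons of 143 and 91 nt. The remaining Kdm1a starts lay 25.6 kb or more downstream of the first. Of the 6 such groups, 4 held a single model with no protein identifier, which GENCODE M1 lists as a retained intron, and none had a CpG ratio above 0.431.

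**Figure D4:**
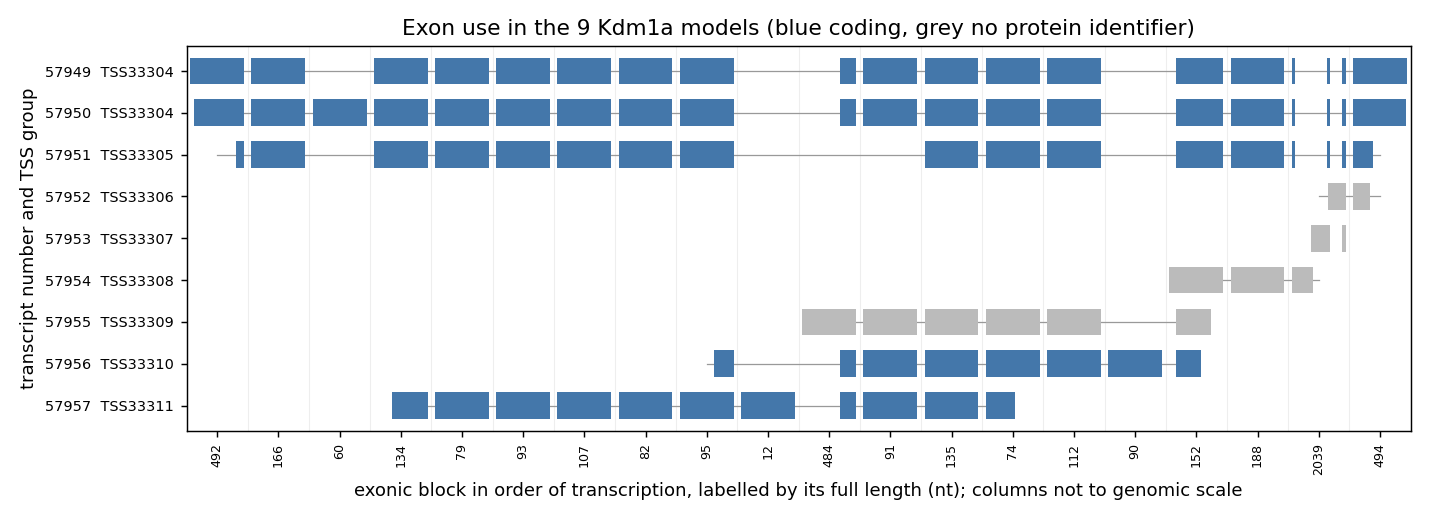
Rows are the 9 Kdm1a models and columns the 20 exonic blocks in order of transcription, each labelled with its full length in nt and drawn to the same width. The 60-nt and 12-nt blocks are each filled in 1 row. The 2039-nt block joins 3 exons of the coding models with the introns between them. TCONS_00057952 retains the later intron whole. No model retains the earlier one whole, which the overlapping ends of TCONS_00057953 and TCONS_00057954 cover together.

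Rest (locus XLOC_023597) lies at chr5:77694516-77715457. Its 3 models shared a start codon in the second exon, of 892 nt, and the next exon of 84 nt. TCONS_00059790 and TCONS_00059792 began 705 bases apart, ended in the same exon of 5730 nt and shared a protein identifier with 1082 codons. TCONS_00059791 ended instead in an exon of 32 nt (chr5:77708924-77708955), 4.58 kb after the 84-nt exon and 0.772 kb before the long last exon, and its reading frame had 332 codons. A truncated form of REST made by including a short exon is known from neurons. The 32-nt exon is shown in capitals with 20 bases before and 10 after, on the plus strand.
Rest 32-nt last exon: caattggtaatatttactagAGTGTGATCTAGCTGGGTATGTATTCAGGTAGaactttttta
The letters gt do not follow it, as it ends its model, but the string GTATGT begins at its base 17, so that 16 bases precede letters of the kind that begin an intron. GT also stands elsewhere in this exon, including within its last letters, GGTAG. No model ends an exon before any of these, and their use as donors was not tested. As a terminal exon it was not counted among skipped internal exons.

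The promoter of the first Rest start, with a CpG ratio of 1.17 the highest of the 26 member starts, is shown from 120 bases before to 30 after the start (chr5:77694396-77694545, plus strand) with GGGCGG in capitals.
TSS34416: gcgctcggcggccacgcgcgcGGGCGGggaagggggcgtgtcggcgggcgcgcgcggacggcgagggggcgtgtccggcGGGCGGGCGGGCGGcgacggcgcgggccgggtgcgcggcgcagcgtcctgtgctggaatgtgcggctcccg
Its longer window of 300 bases held 7 GGGCGG strings on either strand, counted with overlaps, and that of the second start held 4.

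The 3 CoREST genes had a like exon structure up to the 58-nt exon described below and differed after it. Rcor1 (locus XLOC_006700, chr12:112277561-112354112, plus strand) had 12 exons in its single model of 382 codons. Rcor2 (locus XLOC_014662, chr19:7341894-7349715, plus strand) had 13 in the model with the most exons, and Rcor3 (locus XLOC_001844, chr1:193922652-193961892, minus strand) had 11. Aligned by their shared exon of 53 nt, 4 exons had the same length in all 3 genes, of 53, 162, 78 and 58 nt, and the other 5 aligned internal exons differed by multiples of 3. Over the 162-nt exon, 74.7% of bases were the same in Rcor1 and Rcor2, 82.1% in Rcor1 and Rcor3 and 78.4% in Rcor2 and Rcor3. Over the 78-nt exon these shares were 61.5%, 64.1% and 55.1%. After the 58-nt exon, the Rcor1 and Rcor2 models compared had an exon of 230 nt and then a last exon. Both Rcor3 models lacked such an exon and ended in a last exon of 2385 nt.

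**Figure D5:**
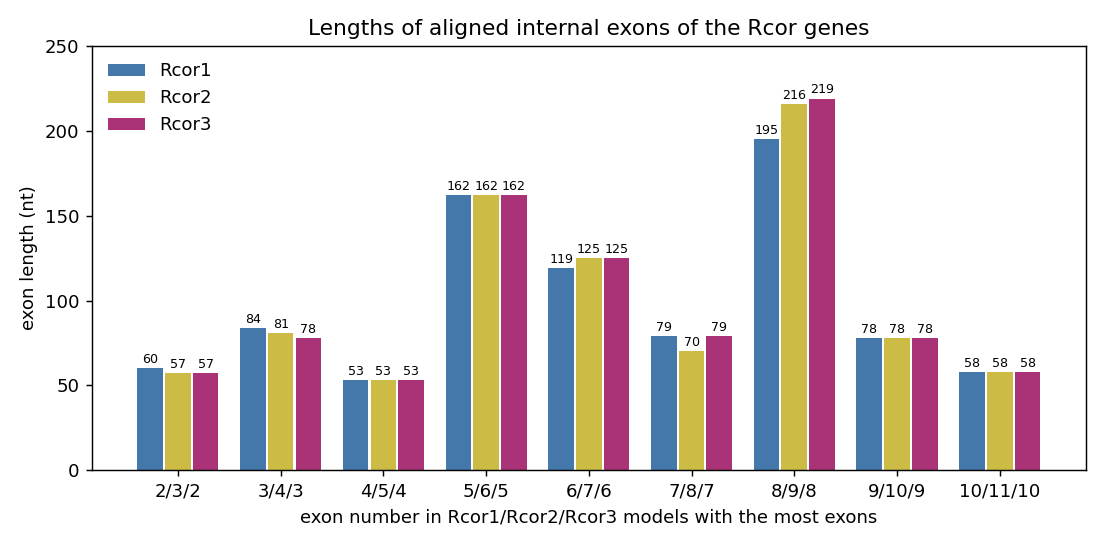
Bars give the length in nt of 9 aligned internal exons of Rcor1, Rcor2 and Rcor3, each from the coding model with the most exons, on a linear axis. The groups at 53, 162, 78 and 58 nt have 3 bars of the same height.

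The 58-nt exon was the place where Rcor3 isoforms differed. TCONS_00004728 contained it and had 434 codons, and TCONS_00004727 skipped it and had 451, with a stop codon 109 bases further into the last exon of 2385 nt. The coding models of Rcor1 (1) and Rcor2 (3) analysed here all contained it. The exon is shown for the 3 genes, each on its own transcribed strand (chr12:112347065-112347122, chr19:7348323-7348380 and chr1:193932525-193932582), with the 36 bases that are the same in all 3 in capitals.
Rcor1: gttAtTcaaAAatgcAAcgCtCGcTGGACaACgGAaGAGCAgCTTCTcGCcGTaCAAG
Rcor2: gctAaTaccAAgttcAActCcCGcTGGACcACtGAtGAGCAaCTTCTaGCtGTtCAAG
Rcor3: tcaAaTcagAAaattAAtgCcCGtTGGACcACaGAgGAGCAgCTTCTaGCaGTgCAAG
The capitals crowd the second part of the exon, where the differing bases stand mostly alone.

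Rcor2 differed from its relatives by its starts. TSS20869 and TSS20870 lay 897 bases apart and shared a protein identifier with 523 codons, with 132 and 661 bases of mRNA before the start codon. TSS20871 began 1 base before the 57-nt exon of the other models, placed 6 bases before its start codon and had 479 codons. Its CpG ratio was 0.137.

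Short alternative exons were counted as internal exons of at most 51 nt that an intron of another model skipped exactly. There were 3 at the 6 loci, the 27-nt and 33-nt exons of Phf21a and the 12-nt exon of Kdm1a, so that 2 of the 6 genes had one. The share of coding loci with such an exon was 5.60%. Among loci with 2 or more models it was 9.85%. The 23-nt exon of Phf21a was left out of this count because the intron that passes over it ends at the 164-nt exon. Of the 3 exons, 0 had TGCATG, the string bound by the RBFOX family of splicing factors, in the 150 intronic bases on either side, and 18.1% of all 1578 short skipped exons had it. With 3 exons, that share cannot be compared with precision. The 41-nt exon of Phf21a (chr2:92054206-92054246) was outside this count, as no model skipped it exactly. It was in 10 of 11 spanning models and had 1 TGCATG in the 150 intronic bases after it.

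Of 28 genes listed as partners of the complex or as splicing factors of short exons, 27 were found by name. A short skipped exon was found in 5 of the 27, against 5.60% of all coding loci and 9.85% of those with 2 or more models. The genes with one were the partners Phf21b and Sin3a and the splicing factors Rbfox2, Rbfox3 and Ptbp1. Of the 27, 20 had 2 or more TSS groups, against 43.7% of all coding loci, with a median of 6 transcripts and 4 TSS groups. Ctbp2, a corepressor, was the one with more TSS groups than Phf21a, with 13. Hdac1 and Hdac2, the deacetylases of the complex, had 7 and 5 transcripts in 5 and 4 TSS groups and no short skipped exon. Kdm1b, the relative of Kdm1a, had 5 transcripts in 3 groups, and Srrm4 had 3 in 3. Phf21b, the relative of Phf21a, had 7 transcripts in 6 groups and a short skipped exon of 23 nt (chr15:84624326-84624348, minus strand) in 3 of 4 spanning models. It matched the 23-nt exon of Phf21a at 17 of 23 bases, shown in capitals.
Phf21a 23-nt exon: CCAATGAGGAaCaCTGgccaAAG
Phf21b 23-nt exon: CCAATGAGGAcCcCTGctggAAG
In Phf21b the model without the exon skipped it exactly and no exon of 164 nt was in its models, whereas 6 models of Phf21a had that longer exon in its stead.

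Some neighbouring genes share sequence space with the members. Within Phf21a introns lie the microRNA gene Mir1955 (chr2:92032134-92032231) and the pseudogenes Gm13786 and Gm13785, all on the same strand and with no shared exonic base. Rcor3 shares 674 exonic bases with Gm16621, a lincRNA on the opposite strand at its 3' end. Luzp1 overlaps the 3' end of the Kdm1a locus on the opposite strand without sharing exonic bases. The library protocol, with randomly primed double-stranded cDNA ligated to adapters, does not mark strand, so reads from the shared Rcor3 bases cannot be told apart from those of Gm16621.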

How the data were processed

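Poly-A RNA of 12 NAc pools was sequenced by the authors. Per the labels they processed the reads with CASAVA, TopHat, Cufflinks and Cuffdiff on mm9 (NCBIM37), without versions. Reads were aligned to an Ensembl reference on that build. The deposited file holds other values than expression, namely the first and last base of each exon of the gene models, 1-based, with no counts and 0 columns of values per sample. Groups were taken from the sample titles.

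Models were selected by gene name. Transcripts, TSS groups (first base of the most upstream model), exons and introns were compared within a locus with Python 3.11.15, and figures were drawn with matplotlib 3.10.9. Sequence was read from the NCBIM37 genome, and start and stop codons from GENCODE M1, in which 99.3% of deposited transcripts were found by identifier and 97.9% of these had the same exons. Promoter windows ran from 250 bases before to 50 after a start, flanks were 150 intronic bases, and both strands were searched for promoter strings but only the transcribed strand in flanks. The CpG ratio was the number of CG times the window length over the product of the numbers of C and G. Shares were described over all coding loci, without tests. Steps were tested on simulated models, with 15 of 15 tests passed. The named genes were the 6 members, the list of partners and splicing factors (values for Phf21b, Kdm1b, Hdac1, Hdac2 and Srrm4) and overlapping genes. Outside this rule, with values already in view, Ctbp2, the exon pair of Phf21a, the GTATGT string and the Phf21b exon were added. The members and lists were chosen with earlier results of these data known. Expression values of the 6 genes under cocaine are not reported here.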

Additional observations from a re-analysis of the deposited data

How the results depend on the processing

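No paired analysis was possible because the deposited file analysed here holds no values per pool, and for the same reason no pool could be left out. Of 15 alternatives, 10 moved a count by no more than 1.5 times. The number of short alternative exons at the 6 loci, 3 as defined, was 6 with a limit of 100 nt and 6 when an exon had only to be missing from a spanning model. The share of coding loci with one was 2.05% with a limit of 27 nt, 16.0% with 100 nt and 9.85% among loci with 2 or more models. The 10 Phf21a starts became 15 as distinct first bases and 8 when bases within 500 were joined, and all 38 member models, instead of 30, counted as coding by the deposited biotype. With windows of 500 bases on each side, 8 of the member promoters, in place of 9, had a CpG ratio above 0.6. The models are reference annotation, and the depth behind any isoform in NAc is unknown from them.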
